A study of Mus musculus with 6 samples.

Results

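Transcripts of 33 genes of the unfolded protein response and of the ATF4 programme, out of 21959 genes in the deposited table, were compared between mouse bone marrow-derived macrophages given medium from either of 2 alveolar macrophage cultures. The genes were taken by symbol from a list of known pathway members, which was chosen with earlier results of these data known. It held 14 chaperones and folding enzymes of the endoplasmic reticulum (ER) and 7 genes of ER-associated degradation (ERAD). It also held 4 genes of stress sensing, called the sensor genes (Ern1, Atf6, Eif2ak3 and Xbp1), and 8 genes of the ATF4 arm. All cells sequenced were wild-type primary bone marrow-derived macrophages, which had spent 24 h in a 1:1 mixture of fresh medium and conditioned medium. That medium had been conditioned for 48 h by alveolar macrophages from mice of 8 to 12 weeks. In 3 libraries (N1, N2, N3) the alveolar macrophages lacked HTR2C, the serotonin receptor 2C, and in 3 libraries (P1, P2, P3) they carried it. The contrast is therefore between the 2 media, and all 6 libraries share exposure to an alveolar macrophage product. No culture without conditioned medium is analysed here, so no level can be set against unexposed cells. The labels do not say whether the 3 libraries of a group came from separate cultures or animals, and p-values then measure only the spread between these libraries, which may be technical.

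Cells fold secreted and membrane proteins in the ER, and a surplus of unfolded proteins is sensed there by IRE1 (gene Ern1), ATF6 and PERK (gene Eif2ak3). IRE1 splices Xbp1 mRNA and ATF6 is cut to release a transcription factor, and both outputs raise genes for chaperones and for ERAD, which sends misfolded proteins to the proteasome. PERK phosphorylates eIF2alpha, which lowers translation at large but favours that of ATF4, a factor that raises genes of amino acid synthesis and of recovery from stress. Macrophages secrete much protein, and these pathways are known to be active in them. Xbp1 splicing, cleavage of ATF6 and the translation of ATF4 are not read by counts per gene.

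The ER chaperone promoters are the best known carriers of the ER stress response element (ERSE), where NF-Y binds the CCAAT end and ATF6 or XBP1 the CCACG end. Its letters, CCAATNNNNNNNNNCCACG, were searched on both strands of the 250 bases before the RefSeq transcription start (build GRCm38.p6, which is not the build of the count table, GRCm39). Of the 33 genes, 29 had a RefSeq promoter entry, and Manf, Hyou1, Derl1 and Atf6 had none. The element lay in the promoters of 7 of the 12 chaperone genes matched, 2 of 6 ERAD genes (Syvn1 and Derl3), 0 of 3 sensor genes and 0 of 8 genes of the ATF4 arm, against 0.13% of 27025 genes. Since chaperone promoters are its best known carriers, their share is not a finding of these data. The chaperone promoters are shown because most of these genes shared a direction in the comparison that follows. Capitals mark the element with 30 bases on either side, and where the capitals begin with CGTGG it is on the opposite strand.
Hspa5, chr2:34771995-34772073, plus strand: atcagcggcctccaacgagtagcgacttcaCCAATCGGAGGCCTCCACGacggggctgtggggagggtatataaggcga
Hsp90b1, first, chr10:86705608-86705686, minus strand: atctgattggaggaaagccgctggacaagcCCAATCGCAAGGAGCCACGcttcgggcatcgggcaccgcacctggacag
Hsp90b1, second, chr10:86705503-86705581, minus strand: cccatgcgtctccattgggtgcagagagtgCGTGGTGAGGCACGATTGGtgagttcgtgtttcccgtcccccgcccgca
Creld2, chr15:88819490-88819568, plus strand: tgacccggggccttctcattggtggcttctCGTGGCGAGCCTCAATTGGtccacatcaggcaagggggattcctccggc
Dnajc3, chr14:118937797-118937875, plus strand: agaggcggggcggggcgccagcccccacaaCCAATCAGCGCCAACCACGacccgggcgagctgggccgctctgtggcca
Pdia6, chr12:17266461-17266539, plus strand: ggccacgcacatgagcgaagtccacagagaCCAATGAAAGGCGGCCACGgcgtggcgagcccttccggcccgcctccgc
Calr, chr8:84847045-84847123, minus strand: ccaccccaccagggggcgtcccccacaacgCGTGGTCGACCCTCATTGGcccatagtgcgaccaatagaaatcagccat
Canx, chr11:50325770-50325848, minus strand: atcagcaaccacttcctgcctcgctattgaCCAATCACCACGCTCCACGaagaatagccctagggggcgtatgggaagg

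Among the chaperones the element stood nearest to the start in Hspa5, at positions -65 to -47, and in Hsp90b1 it occurred in both orientations, at -212 to -194 and at -107 to -89. The shorter ERSE-II, ATTGGNCCACG, was found in Herpud1 alone among the 29 genes, against 0.037% of all genes. The C/EBP-ATF response element (CARE, TGATGNAA), to which ATF4 binds with C/EBP partners, was found in Asns and Chac1 among the 8 genes of the ATF4 arm and in Herpud1, against 3.91% of all genes. The UPRE core TGACGTGG, known as an XBP1 and ATF6 element, was in 0 of the 29 windows and in 0.603% of genes. The ERSE-II of Herpud1 and the CARE of Asns and of Chac1 are shown with their surroundings, as the forms of element not yet shown.
Herpud1, ERSE-II, chr8:94386347-94386417, plus strand: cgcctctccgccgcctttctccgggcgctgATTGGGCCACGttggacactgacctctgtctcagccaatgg
Asns, CARE, chr6:7693210-7693262, minus strand: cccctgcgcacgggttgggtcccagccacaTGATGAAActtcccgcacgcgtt
Chac1, CARE on the opposite strand, chr2:119351019-119351086, plus strand: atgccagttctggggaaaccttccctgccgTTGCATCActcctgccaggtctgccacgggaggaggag

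The 6 libraries held 12843971 to 16031723 counts. The 8 macrophage markers summed to 24290 to 26220 CPM (counts scaled to library size) with HTR2C-negative medium and to 22940 to 25740 with HTR2C-positive medium. Lyz2, at 16040 to 18640 CPM, made up most of this sum, so it says little of the other markers. Csf1r had 83.9, 126.9 and 106.2 CPM in N1 to N3 and 170.7, 130 and 191.1 in P1 to P3. Its log2 fold change was 0.63 (edgeR adjusted p = 0.141), while those of Adgre1, Cd68, Lyz2 and Cd14 were below 0. Neutrophil-type transcripts summed to 686.7 to 867.6 CPM with HTR2C-negative and 850.5 to 1088 CPM with HTR2C-positive medium. Ly6g and Cxcr2 were at 0, but other markers of that list were detected and had higher means with HTR2C-positive medium. These were S100a8 (655 against 797.5 CPM), S100a9 (91.8 against 118), Camp (13.27 against 19.15), Mpo and Elane. The 6 B and plasma cell markers summed to 16.1 CPM at most. Mzb1 was at 0, while Jchain had means of 8.73 and 7.72 CPM. The part of such cells in the results was not tested. In bulk RNA, fewer cells of a type and less RNA per cell cannot be told apart. Libraries also differed in how counts depended on base composition. For each library, log2 CPM relative to the gene's mean over the 6 libraries was regressed on transcript GC content. The slope per 10 percentage points was -0.34 in N1, -0.04 in N2 and -0.21 in N3. With HTR2C-positive medium it was 0.26 in P1, 0.18 in P2 and 0.16 in P3, so the slope separated the 2 groups. The main results are therefore also given from a fit corrected, library by library, for GC content and transcript length, called the trend-corrected fit. N2 and P1 had the highest correlation of any 2 libraries although they belong to different groups (r = 0.9795 over tested genes).

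Levels between genes were compared as FPKM (fragments per kilobase of transcript, scaled to library size), which allow for transcript length. Canx, the membrane-bound lectin chaperone calnexin, had the highest level, with a mean over the 6 libraries of 445.1 FPKM and a range of 300.2 to 653.4. Hspa5, which encodes the central ER chaperone BiP, followed with a mean of 176.5 FPKM (range 135.9 to 218.5). These 2 ranges did not overlap, and the lowest Hspa5 value lay above every other gene of the set, the next being the disulfide isomerase gene Pdia3 at a mean of 65.7 FPKM (51.8 to 73.3) and Xbp1 at 60.0 FPKM (47.9 to 84.4), whose ranges did overlap. Atf4 reached a mean of 20.7 FPKM (16.2 to 28.6), and the serine synthesis enzyme Psat1 10.9 (9.96 to 12.0). The sensor genes other than Xbp1 stood far lower, Atf6 at 1.43, Ern1 at 0.529 and Eif2ak3 at 0.194 FPKM. Near the bottom were the ATF4 targets Sesn2, Trib3 and Chac1 at 0.339, 0.266 and 0.230 FPKM and the BiP partner Hyou1 at 0.284, and at the bottom Derl3, which had 0 counts in every library. A count of 0 allows up to 3 counts, or 0.187 to 0.234 CPM by library, and covers counting error only.

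**Figure D1:**
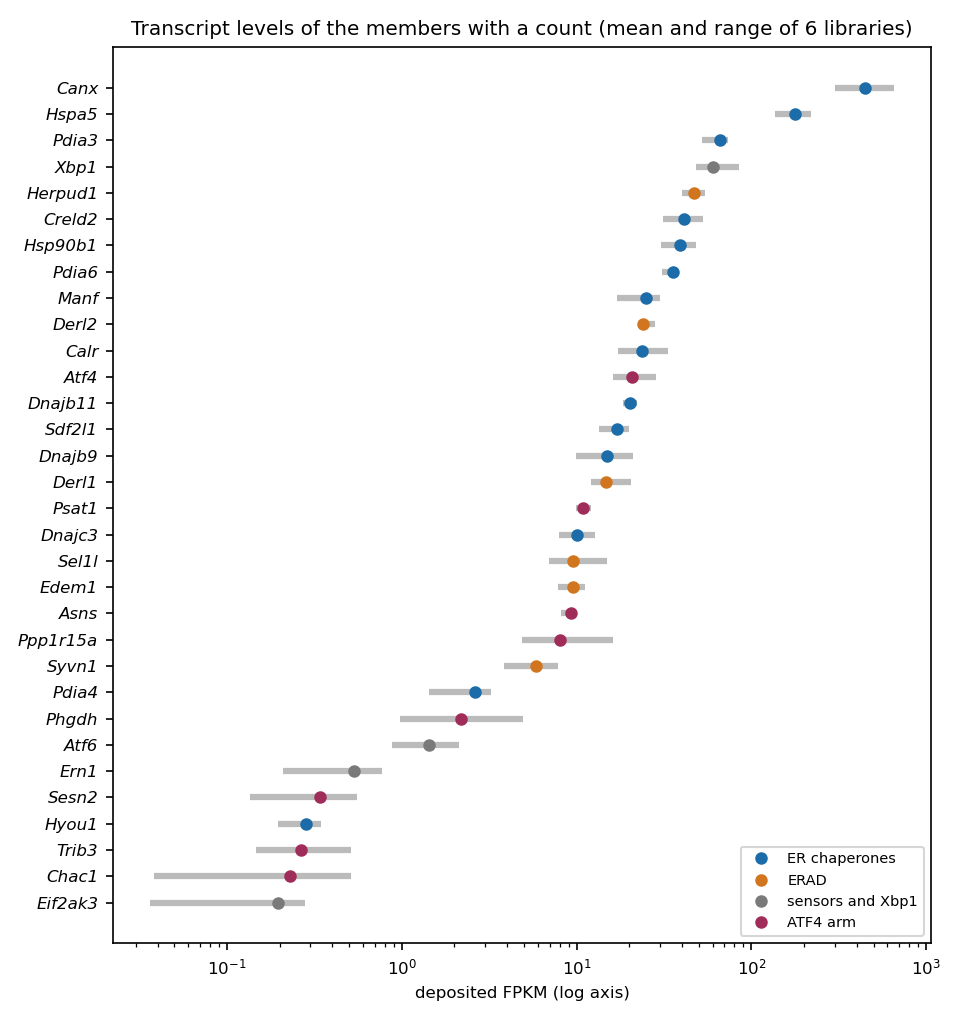
Deposited FPKM of every gene of the set with a count, on a log axis and ordered by level, with a point at the mean and a grey bar for the range over the 6 libraries, coloured by arm. Canx and Hspa5 lie above all other genes, and Eif2ak3, Chac1, Trib3, Hyou1, Sesn2 and Ern1 lie lowest. Derl3, with 0 counts, is not drawn.

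The comparison asked whether these transcripts differed in the recipient macrophages between the 2 media. No gene of the set passed an adjusted p of 0.05 in edgeR's quasi-likelihood test with Benjamini-Hochberg adjustment over the 10177 genes tested, and neither did any other gene (0%). Unadjusted p-values under 0.05 came out for 804 higher and 886 lower genes, while limma-voom gave 0 adjusted calls and DESeq2 394. Of the 33 genes, 30 passed the count filter and entered the test. At an unadjusted p under 0.05, 7 of the 30 were lower with HTR2C-positive medium, where 8.71% of all tested genes were, and 2 of the 30 were higher, where 7.9% were. The 3 libraries of one group lay wholly below those of the other in 9 genes that were lower with HTR2C-positive medium (11.5% of all tested genes) and in 1 that was higher (10.9%). Without N2 the adjusted calls over all genes numbered 206 and without P1 they numbered 186. Without both they numbered 1107 of 10156 tested genes. Among the 31 genes of the set tested there, 8 were called: Hspa5, Hsp90b1, Creld2, Dnajb9, Dnajc3, Pdia3 and Canx, all lower, and Calr, higher. N2 and P1 were the 2 most correlated libraries, so leaving out both sets the groups farther apart. No conclusion is drawn from these calls.

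In the main fit the median fold change was below 0 in the chaperone arm and above 0 in the other arms. Among the 14 chaperones and folding enzymes, 12 had a lower fitted value with HTR2C-positive medium, against 4876 of the 10177 tested genes, and the median log2 fold change was -0.31 against 0.02 over all tested genes. All 6 chaperone genes at an unadjusted p under 0.05 were lower, where 8.71% of all tested genes were lower at that threshold. All 7 whose groups did not overlap were also lower, where 11.5% of all tested genes were lower without overlap. In the trend-corrected fit the median was also -0.31, and all 14 kept their sign. There 4 genes were lower at an unadjusted p under 0.05, where 5.46% of all tested genes were. The medians of the other arms were 0.12 for 6 ERAD genes, 0.23 for 4 sensor genes and 0.23 for 6 genes of the ATF4 arm. Between the libraries of a group, the SD of an arm's log2 median was 0.13 for chaperones, 0.07 for ERAD, 0.21 for sensors and 0.23 for the ATF4 arm. In the trend-corrected fit the ERAD median was 0.14 and the sensor median 0.09. The ATF4 median was -0.06 there, and -0.18 when P1 was left out, so its sign depended on that correction and on 1 library. Without N1 it was 0.08. The median GC content was 48.2% in the chaperone genes, 55.6% in the ATF4 arm and 48.9% over all tested genes. The part of base composition in these differences was not tested beyond that correction.

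**Figure D2:**
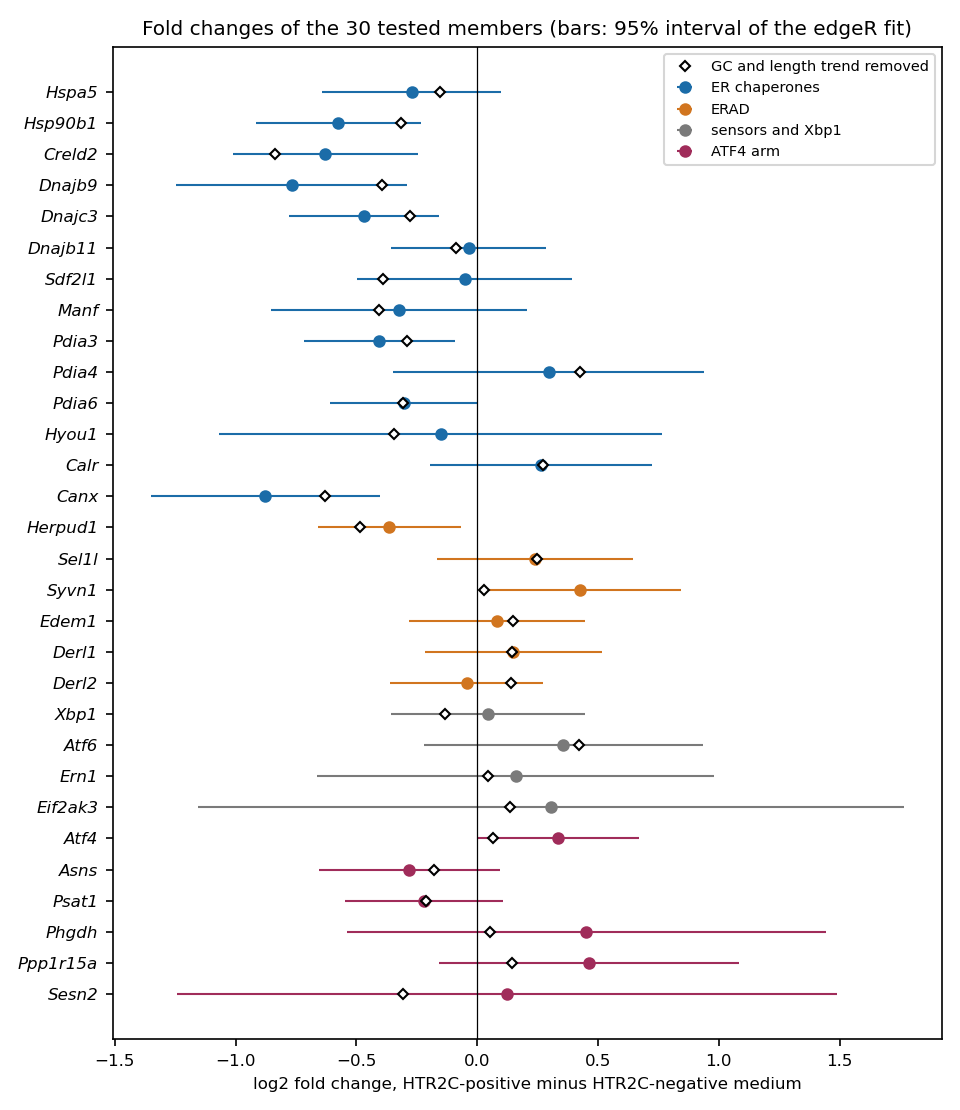
Fitted log2 fold change of the 30 tested genes, as the value with HTR2C-positive medium less that with HTR2C-negative medium, the 95% interval of the edgeR fit drawn as bars and the trend-corrected value as open diamonds. Chaperone points lie to the left of 0 in 12 of 14 genes, and the diamonds of Atf4 and Syvn1 lie close to 0.

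Canx, which holds newly made glycoproteins until they are folded, had the largest difference among the chaperones. The gene lies at chr11:50184788-50216500. Canx stood at 3482 CPM in N1, 1895 in N2 and 2953 in N3, and at 1251 CPM in P1, 1794 in P2 and 1493 in P3, and values of the other genes follow in this order of libraries. Every library with HTR2C-negative medium lay above every one with HTR2C-positive medium, but N2 and P2 were close together. The mean was 2776 ± 808 against 1513 ± 272 CPM (SD, n = 3 each), and the log2 fold change was -0.88 (SE 0.22, adjusted p = 0.0986), or 0.545 times the level. In the trend-corrected fit it was -0.63. The adjusted p ranged from 3.11e-06 to 0.779 over 16 alternatives, and Canx passed 0.05 in 4 of them, including DESeq2. Calreticulin, encoded by Calr, is the soluble partner of calnexin and did not share this direction. Calr had 56.4, 61.8 and 67.1 CPM against 47.8, 84.9 and 90.0 CPM, so P1 was the lowest and P2 and P3 the highest of the 6 libraries (log2 fold change 0.26, SE 0.21, adjusted p = 0.561). Without P1 the Calr value was 0.52.

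BiP and its partners make up the next group. Hspa5 (chr2:34661982-34667559) had 851.7, 789.8 and 809.2 against 820.6, 669.6 and 540.1 CPM. P1 lay within the range of the HTR2C-negative libraries, P2 and P3 lay below it, and the groups overlapped. The means were 817 ± 31.7 and 677 ± 140 CPM (SD, n = 3 each), with a log2 fold change of -0.27 and a 95% interval of -0.64 to 0.10 (adjusted p = 0.442). Hsp90b1 (chr10:86526073-86541373) encodes GRP94, the ER member of the HSP90 family, which matures integrins and Toll-like receptors. It had 220.0, 155.9 and 196.6 against 126.1, 128.3 and 130.1 CPM, and the groups did not overlap. The HTR2C-positive libraries were within a few CPM of one another, while N2 was the lowest of the others. Its log2 fold change was -0.57 (SE 0.16, adjusted p = 0.120), and -0.32 in the trend-corrected fit. Hyou1, a nucleotide exchange factor for BiP, was near 2 CPM in each group (2.17 ± 0.164 and 1.96 ± 0.667, SD, n = 3 each), and at this depth its interval, -1.07 to 0.77 on the log2 scale, spans differences in both directions.

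The J proteins bring clients to BiP and drive its ATP cycle. Of the 3 J protein genes in the set, 2 had groups that did not overlap, on the lower side, as had 11.5% of all tested genes. Dnajb9 (chr12:44252342-44257109), which encodes ERdj4 and is known as an XBP1 target, had 60.9, 39.5 and 47.2 CPM against 22.5, 38.3 and 25.9 CPM. The groups did not overlap, but N2 and P2 were separated by little more than 1 CPM. The fitted difference of -0.77 on the log2 scale (SE 0.22, adjusted p = 0.134) became -0.39 in the trend-corrected fit, and it was -1.02 without P2. Dnajc3 (chr14:119175388-119219109) encodes p58IPK, a co-chaperone of BiP, and had 58.7, 61.8 and 60.6 against 46.4, 42.6 and 42.1 CPM. The replicates of Dnajc3 were tight and the groups well apart, with means of 60.4 ± 1.56 and 43.7 ± 2.37 CPM (SD, n = 3 each). On the log2 scale the difference was -0.47 (SE 0.14, adjusted p = 0.150), and -0.28 trend-corrected. Dnajb11, which encodes ERdj3, had 75.6, 60.1 and 63.9 against 63.7, 66.7 and 64.2 CPM and overlapped fully (log2 fold change -0.04, 95% interval -0.36 to 0.29). Sdf2l1, whose product works with ERdj3, had 19.9, 18.2 and 19.8 against 18.7, 23.0 and 14.0 CPM and also overlapped (log2 fold change -0.05, SE 0.21).

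Creld2 and Manf encode small soluble ER proteins known as products of ER stress. Creld2 (chr15:88703849-88710886) had 75.3, 55.3 and 77.9 against 38.0, 50.6 and 46.3 CPM. The groups did not overlap, with the gap between N2 and P2, and the log2 fold change was -0.63 (SE 0.18, adjusted p = 0.129). Creld2 lay farther from 0 in the trend-corrected fit, at -0.84, where the chaperone genes Canx, Hsp90b1 and Dnajb9 lay nearer to it. Its transcript GC content of 54.8% exceeds theirs (42.2%, 42.1% and 40.6%). Manf had 120.2, 69.9 and 109.0 against 53.3, 106.2 and 79.3 CPM, with overlap between the groups (log2 fold change -0.32, SE 0.25, adjusted p = 0.533). The Manf value ran from -0.59 without P2 to -0.086 without P1. The annotated span of Manf overlaps that of Dcaf1 on the opposite strand and of Rbm15b on the same strand, and the strand setting of the counting is not given in the sources used here, so its counts are less certain.

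Protein disulfide isomerases form and rearrange disulfide bonds. Pdia3 (chr2:121244256-121269168) encodes ERp57, which works with calnexin and calreticulin and in loading of MHC class I. It had 250.4, 211.2 and 247.9 against 175.9, 169.3 and 190.7 CPM, without overlap, which gave -0.40 on the log2 scale (SE 0.14, adjusted p = 0.194). Pdia6 (chr12:17316546-17334771) had 155.6, 135.9 and 152.3 against 126.1, 120.7 and 112.8 CPM, also without overlap, which gave -0.30 (SE 0.14, adjusted p = 0.303). Pdia3 and Pdia6 were thus lower in every HTR2C-positive library than in any HTR2C-negative library, and their trend-corrected values were -0.29 and -0.31. Pdia4, another isomerase gene, had 7.52, 5.71 and 3.70 against 5.82, 7.54 and 7.31 CPM, with overlap (log2 fold change 0.30, SE 0.30, adjusted p = 0.649).

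**Figure D3:**
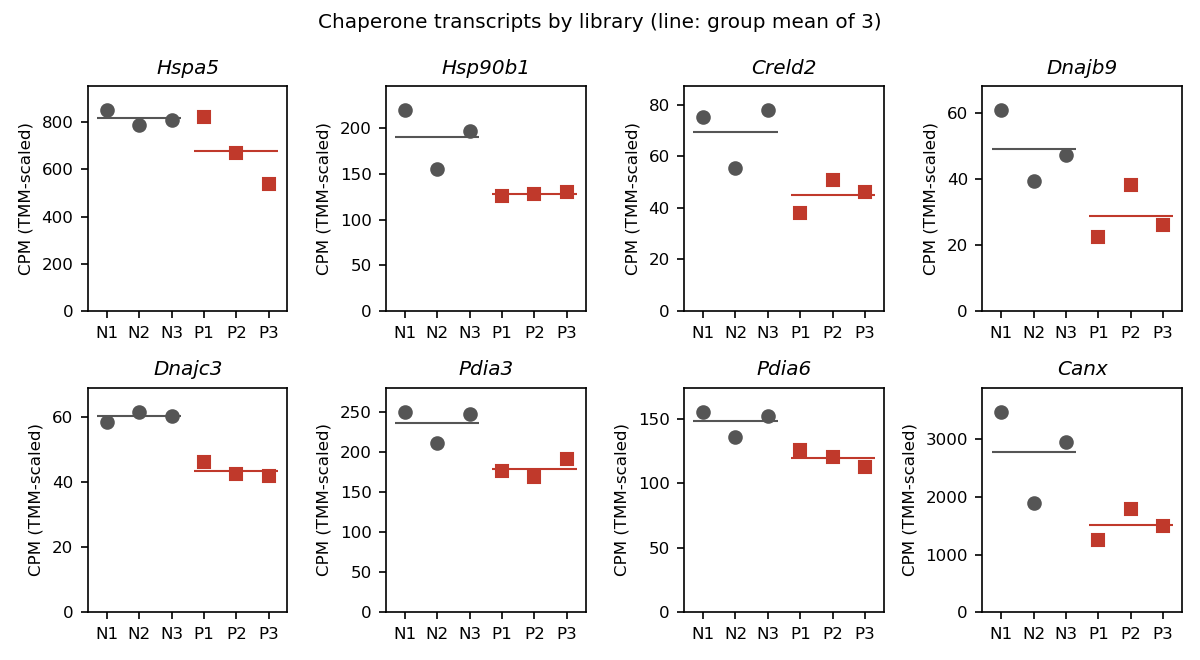
TMM-scaled CPM of chaperone and folding genes in each library (grey circles N1 to N3, HTR2C-negative medium; red squares P1 to P3, HTR2C-positive medium), with a line at each group mean of 3 libraries and axes from 0. The groups of Canx, Hsp90b1, Creld2, Dnajb9, Dnajc3, Pdia3 and Pdia6 do not overlap, and N2 is the lowest of the HTR2C-negative libraries in all of these but Dnajc3.

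Library N1 was the highest of the 6 libraries in 8 of the 14 chaperone genes (57.1%) and P1 the lowest in 7 (50%), where N1 was highest in 22% and P1 lowest in 19.4% of all tested genes. The median of the chaperone arm stayed below 0 in each fit that left out 1 library, these 2 included. Canx remained at -0.68 or lower in those fits, Dnajc3 at -0.43 or lower and Pdia3 at -0.35 or lower. Of the 7 chaperone genes with an ERSE, 6 had a lower fitted value with HTR2C-positive medium and Calr a higher one. Of the 5 matched without one, 4 were lower, namely Dnajb9, Dnajb11, Sdf2l1 and Pdia3, and Pdia4 was higher. Over all tested genes, 4876 of 10177 had a lower fitted value. The counts above include Hspa5, Dnajb11 and Sdf2l1, whose groups overlapped. Whether the element bears on the direction was not tested.

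ERAD genes showed no common direction. Herpud1 (chr8:95113066-95122005), whose product helps assemble the retrotranslocation complex, had 130.8, 119.8 and 120.3 against 95.9, 97.6 and 94.8 CPM. The HTR2C-positive libraries lay within a few CPM of one another and below all others, at 96.1 ± 1.40 against 124 ± 6.24 CPM (SD, n = 3 each). This gave -0.36 on the log2 scale (SE 0.14, adjusted p = 0.214), and -0.49 trend-corrected. Syvn1 (chr19:6096606-6103742) encodes the ubiquitin ligase HRD1 at the centre of that complex and pointed the other way, at 21.3, 27.9 and 23.1 against 34.0, 37.7 and 25.5 CPM. P1 and P2 lay above every HTR2C-negative library but P3 did not, and the log2 fold change of 0.43 (SE 0.19, adjusted p = 0.291) became 0.03 in the trend-corrected fit. Syvn1 also overlaps Mrpl49 on the opposite strand by 91 bases. Sel1l, the partner of HRD1, had 67.7, 81.9 and 70.6 against 113.6, 72.6 and 73.8 CPM. The Sel1l value of 0.24 (SE 0.19, adjusted p = 0.551) came from P1 alone and was 0.01 without it. Edem1, which trims mannose from misfolded glycoproteins, and the derlin genes Derl1 and Derl2 had log2 fold changes of 0.08, 0.15 and -0.04 with overlapping groups.

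In all 4 sensor genes the groups overlapped. Xbp1 (chr11:5470659-5475893) had 188.4, 212.0 and 171.0 against 243.4, 199.2 and 146.2 CPM, so that the highest and the lowest library were both from the HTR2C-positive group. Its log2 fold change was 0.04 (SE 0.19, 95% interval -0.36 to 0.44), and counts per gene do not tell the spliced from the unspliced form. Atf6 had 12.0, 10.9 and 11.2 against 16.7, 8.47 and 18.3 CPM, with P2 below and P1 and P3 above all others (log2 fold change 0.36, SE 0.27, adjusted p = 0.530). Ern1 and Eif2ak3 were detected at a few CPM or less, and their 95% intervals, -0.66 to 0.98 and -1.16 to 1.77 on the log2 scale, are too wide at this depth to give a direction.

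In the ATF4 arm, Atf4 itself (chr15:80139385-80141742) had 43.4, 40.8 and 43.9 against 59.9, 54.9 and 46.9 CPM. All 3 HTR2C-positive libraries were above all others, with P3 nearest to them, and the means were 42.7 ± 1.64 and 53.9 ± 6.59 CPM (SD, n = 3 each). The log2 fold change was 0.34 (SE 0.15, adjusted p = 0.299), and it was 0.07 in the trend-corrected fit. Asns, the asparagine synthetase gene and a standard reporter of ATF4 activity, had 30.5, 24.2 and 29.2 against 21.1, 23.3 and 24.7 CPM (log2 fold change -0.28, SE 0.17, adjusted p = 0.436). Asns was thus not higher where Atf4 was, with N2 between P2 and P3. Psat1 (chr19:15882042-15924701), a serine synthesis enzyme gene, had 48.1, 46.4 and 55.1 against 40.4, 44.5 and 43.6 CPM. Its groups did not overlap, although the log2 fold change was only -0.22 (SE 0.15, adjusted p = 0.488). Phgdh, which encodes the first enzyme of the same pathway, had 6.28, 4.61 and 2.62 against 10.96, 4.50 and 2.84 CPM.

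P1 was the highest library in 4 of the 6 tested genes of this arm and the lowest in the other 2, Asns and Psat1, where it was the highest in 22% and the lowest in 19.4% of all tested genes. Ppp1r15a, which encodes GADD34, the phosphatase subunit that reverses eIF2alpha phosphorylation, had 16.3, 23.2 and 18.6 against 42.0, 20.3 and 17.9 CPM. The fitted value of 0.46 (SE 0.29, adjusted p = 0.436) was -0.0037 without P1. That of Phgdh, 0.45 (SE 0.46, adjusted p = 0.653), was -0.27 without P1. Sesn2, which encodes an inhibitor of mTORC1 signalling, had 0.53 to 1.71 CPM over the 6 libraries and a 95% interval of -1.24 to 1.49. The pseudokinase gene Trib3 had 5 to 17 counts and the glutathione-degrading enzyme gene Chac1 1 to 13 counts per library, and neither passed the count filter.

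**Figure D4:**
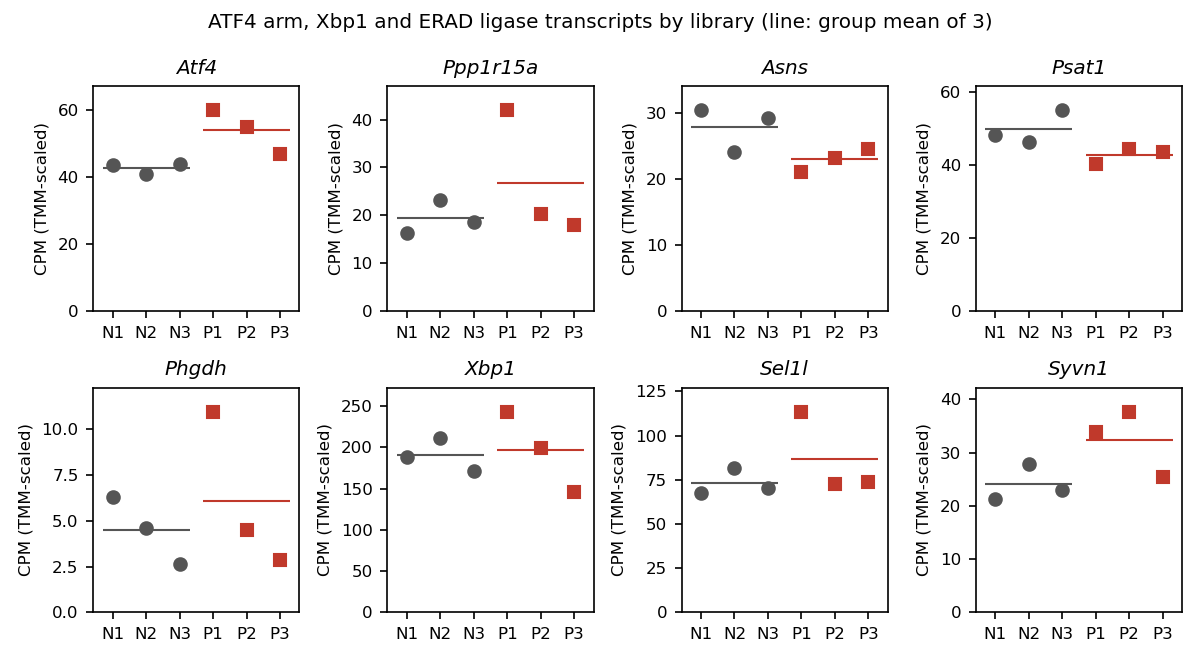
TMM-scaled CPM of ATF4 arm genes, Xbp1, Sel1l and Syvn1 in each library (grey circles N1 to N3, HTR2C-negative medium; red squares P1 to P3, HTR2C-positive medium), with a line at each group mean of 3 libraries and axes from 0. P1 is the highest library for Atf4, Ppp1r15a, Phgdh, Xbp1 and Sel1l, and of the 8 genes only Atf4 and Psat1 have groups that do not overlap.

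Other genes of these pathways came from lists chosen by function. Outside the arm, 31 ATF4-associated genes were tested, of which 4 had an unadjusted p under 0.05 on the higher side and 2 on the lower side, against 7.9% and 8.71% of all tested genes. These shares are the ones to read the counts of the following lists against. Their median log2 fold change was 0.27, and 0.13 in the trend-corrected fit. Cebpg, which encodes a C/EBP factor that dimerises with ATF4, had 65.6, 51.9 and 54.3 against 28.1, 25.3 and 32.6 CPM, without overlap. It was at 0.5015 times the level (log2 SE 0.17, adjusted p = 0.0616, the smallest in the test, which other genes share), and its trend-corrected log2 value was -0.81. Cebpb, which encodes another C/EBP factor central to macrophage gene expression, had 2.65, 2.48 and 4.44 against 5.36, 10.3 and 6.59 CPM. Its value of 1.21 (SE 0.34, adjusted p = 0.129) became 0.57 in the trend-corrected fit, so that Cebpg and Cebpb pointed in opposite directions in both fits. Ddit3, the gene of the stress factor CHOP, had 9.73, 8.25 and 11.5 against 12.3, 13.5 and 12.0 CPM. The Ddit3 groups did not overlap, at 0.36 on the log2 scale (SE 0.21, adjusted p = 0.424), and the trend-corrected value was 0.58, with an unadjusted p of 0.0122. Those of the stress factor gene Atf3 did overlap (0.23, SE 0.17, adjusted p = 0.542). The tRNA enzyme gene Aars, at 0.61 (0.21 trend-corrected), and the tRNA exporter gene Xpot, at -0.79 (-0.74), had the next smallest p-values in the list.

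The translocon list, which holds genes of the channel, signal recognition and signal peptidase through which proteins enter the ER, had an unadjusted p under 0.05 for 5 of 23 tested genes, all on the lower side, where 8.71% of all tested genes were (median log2 fold change -0.09). In the trend-corrected fit 3 were on the lower and 2 on the higher side, where 5.46% and 4.39% of all tested genes were. Spcs3, a signal peptidase subunit gene, was at 215 ± 31.4 against 117 ± 24.9 CPM (SD, n = 3 each), which is -0.87 on the log2 scale (SE 0.18, adjusted p = 0.0805), or -0.54 trend-corrected. Ssr1 (-0.73), Spcs2 (-0.64) and Ssr3 (-0.53) followed, with trend-corrected values of -0.60, -0.58 and -0.25. Among 29 other ER folding genes, 4 were on each side at that threshold (7.9% and 8.71% of all tested genes were higher and lower), and the median of 0.03 was near that of all tested genes (0.02). The transmembrane disulfide isomerase gene Tmx1 was at 115 ± 4.24 against 73.3 ± 6.71 CPM (SD, n = 3 each; log2 fold change -0.65, adjusted p = 0.0805, and -0.34 trend-corrected). Ero1b, an oxidase that recharges the isomerases, was at -0.70 (-0.55 trend-corrected). Sil1, a nucleotide exchange factor for BiP, was at 0.86 and the glucosidase subunit gene Prkcsh at 0.55, and these were 0.57 and 0.13 trend-corrected.

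Among 25 other ERAD genes, whose median log2 fold change was 0.07, an unadjusted p under 0.05 was reached by 3, on the higher side, where 7.9% of all tested genes were. These were the mannosidase gene Man1b1 (0.73, and 0.46 trend-corrected), the ATPase gene Vcp (0.41 and 0.35) and the lectin gene Os9 (0.54 and 0.21). Of 15 tested genes of stress signalling, 2 were higher and 1 lower at that threshold, against 7.9% and 8.71% of all tested genes, with a median of 0.01. Eif2s1, which encodes eIF2alpha itself, had 267.7, 254.4 and 235.3 against 203.0, 153.9 and 182.3 CPM, without overlap (log2 fold change -0.49, SE 0.15, adjusted p = 0.155, and -0.23 in the trend-corrected fit). Atf6b, the ATF6 paralogue, was at 0.77 (0.31 trend-corrected) and Eif2ak4, which encodes the amino acid sensor GCN2, at 1.69 (1.61), the latter from levels of 0.597 ± 0.334 and 1.91 ± 0.868 CPM (SD, n = 3 each). Nck1, an adaptor gene, was at -0.26 (0.04 trend-corrected).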

How the data were processed

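The deposited table of the authors gave read counts and FPKM per gene for 6 libraries. Per the submitters' processing notes, fastp, HISAT2, StringTie, edgeR and GRCm39 were used. For versions, annotation release and strand setting the sources used here give nothing. The deposited FPKM equalled count over length and total count, to a relative difference of 3.8e-07.

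Read counts were tested with edgeR 4.0.16 in R 4.3.3 (TMM factors, filterByExpr, robust quasi-likelihood F test, Benjamini-Hochberg over 10177 genes, threshold 0.05). CPM are TMM-scaled. A positive log2 fold change means more with HTR2C-positive medium, and SE is the fold change over the square root of F. The trend-corrected fit used mgcv 1.9.3 on transcript GC content and length, as an offset. DESeq2 1.42.0, limma 3.58.1 and the settings listed at the end were alternatives. The edgeR, limma-voom and DESeq2 fits were also run on simulated counts, which held no GC trend and no likeness between particular libraries. That run therefore cannot speak to these features of the data. Of the 6 libraries' columns, 0 were left unmapped.

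Members and lists were chosen with earlier results of these data known. All 33 members are named. Those at an unadjusted p under 0.05, or without overlap, are given by library, and each other list gives up to 4 genes of smallest p, with Ddit3, Cebpg and Atf3 in any case. A gene that this rule names is not reported here.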

Additional observations from a re-analysis of the deposited data

How the results depend on the processing

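Of the 60 single genes under 16 alternatives each, 873 values kept direction and side of the threshold, 57 passed it where the reported one had not, and 30 turned sign. Adjusted calls over all genes numbered 422 without the count filter, 394 with DESeq2, 0 to 206 leaving out 1 library, and 1107 without N2 and P1. Members at an unadjusted p under 0.05 that were higher (2 as reported) numbered 1 with RLE factors, 0 with DESeq2, limma-voom, the replicate block, the trend removed or both of these, and 0 to 3 leaving out 1 library. Lower members (7) numbered 4 with total counts, 3 with trend removal and block, and 5 to 9 leaving out 1 library. The shares of all tested genes moved too. The lower share was 8.71% as reported, 3.83% with total counts, 3.55% with trend removal and block, and 4.32% to 9.74% leaving out 1 library. The higher share was 7.9% as reported, 2.74% with trend removal and block, and 3.74% to 10.3% leaving out 1 library. Non-overlapping members numbered 17 of 31 without N2 and P1, where 2 libraries against 2 gave 52.5% of all tested genes without overlap, against 22.3% with all libraries. Total counts moved the median of all genes from 0.02 to 0.158, the chaperone median to -0.174 and the ERAD median to 0.246, so relative to all genes the chaperone value stayed at -0.33. Leaving out 1 library, the ERAD median ran from 0.0427 to 0.162 and that of the ATF4 arm from -0.182 to 0.393. The ATF4 median was -0.0628 with the trend removed, -0.109 with trend removal and replicate block, and -0.035 without N2 and P1. The cause was not tested.

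Signs turned with total counts in Dnajb11 (0.11), Sdf2l1 (0.078) and Derl2 (0.093); with the trend removed in Derl2 (0.14), Xbp1 (-0.13), Sesn2 (-0.31) and Nck1 (0.045); with the replicate block added to it in Derl2 (0.14), Xbp1 (-0.15), Phgdh (-0.042), Sesn2 (-0.34) and Nck1 (0.042); and without N2 and P1 in Hyou1 (0.090), Derl2 (0.026), Xbp1 (-0.042) and Phgdh (-0.25). Leaving out 1 library, Dnajb11 ran from -0.099 to 0.063, Ern1 from -0.16 to 0.37, Sesn2 from -0.21 to 0.55, Eif2ak3 from -0.19 to 0.69, Xbp1 from -0.12 to 0.22, Hyou1 from -0.40 to 0.11, Derl2 from -0.12 to 0.060, Phgdh from -0.27 to 0.80, Ppp1r15a from -0.0037 to 0.69, Edem1 from -0.031 to 0.25 and Sdf2l1 from -0.24 to 0.12. The labels do not say whether same-numbered libraries were paired. Deviations from the group mean correlated at -0.152, -0.231 and 0.0532 between same-numbered libraries. These values cannot settle it, since the deviations of 3 libraries in a group sum to 0. The replicate block gave 0 adjusted calls.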

Other observations

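Of 18 tested cytosolic heat shock genes, which serve folding outside the ER, 5 had an unadjusted p under 0.05, all with the lower values in HTR2C-positive medium, where 8.71% of all tested genes were lower, and the median log2 fold change was -0.16. In the trend-corrected fit 2 were lower at that threshold, where 5.46% of all tested genes were, and the median was -0.08. Hsp90aa1, the inducible cytosolic HSP90 gene, had 852.3, 677.2 and 748.0 against 346.6, 641.8 and 597.1 CPM, with P1 far below the other libraries (log2 fold change -0.52, SE 0.21, adjusted p = 0.245, and -0.28 without P1). Hspa4l (-0.54), Hsph1 (-0.79) and the J protein gene Dnaja1 (-0.35) had the other smallest p-values, and their trend-corrected values were -0.26, -0.77 and -0.11.

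Of 12 oligosaccharyltransferase genes, which attach glycans to proteins entering the ER, 2 were lower and 1 higher at that threshold, against 8.71% and 7.9% of all tested genes, with a median of -0.03. The catalytic subunit gene Stt3a had 198.0, 168.5 and 174.4 against 152.0, 127.8 and 129.0 CPM (log2 fold change -0.40, SE 0.15, adjusted p = 0.205, and -0.14 trend-corrected). Magt1 was at -0.42 (-0.15), while the subunit genes Dad1 and Rpn1 were at 0.36 (0.45) and 0.38 (0.28). The groups of these 4 genes did not overlap, as in 11.5% of all tested genes on the lower and 10.9% on the higher side.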
